A study of Homo sapiens with 32 samples.

Results

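Hep3B cells, a human hepatocellular carcinoma line, in which both endogenous alleles of NAT10 carry the FKBP12(F36V) degron at the C terminus (FKBP) were compared with parental cells without the tag (Wildtype). The members were chosen by the genotype in the library titles, and they were 8 of the 32 libraries of the series. FKBP and Wildtype each had 2 mock-treated and 2 NaCNBH3-treated libraries. All cells of both genotypes had received 100 nM dTAGV1, the compound that recruits a ubiquitin ligase to the degron, for 24 h, so that the Wildtype libraries control for the compound but not for the tag, the antibiotic selection or the editing. The FKBP cells were selected with hygromycin and G418 and were not transduced. Isolation of single clones is not given in the sources used here. The study calls its replicates biological and states, for its cell experiments in general, that they were made on different days from cells of a shared passage range. How the replicates of these libraries were made is not given separately. The p-values measure at most the spread between these libraries, and those of Fisher's exact test only the counting of reads within a replicate pair. The mock and NaCNBH3 fractions of a replicate were split from the same ligated RNA and are not independent of each other.

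NAT10 is the RNA acetyltransferase that makes N4-acetylcytidine (ac4C) in 18S rRNA and, with the adaptor protein THUMPD1, at position 12 of leucine and serine tRNAs. It joins a helicase domain and an acetyltransferase domain and takes part in processing of the ribosomal RNA precursor in the nucleolus. NaCNBH3 reduces ac4C to a base that reverse transcriptase reads as T, so that the C>T share in the NaCNBH3 fraction, set against the mock fraction, reports acetylation. Other mismatches arise where reverse transcriptase misreads other modified bases, or where the genome of the cells differs from the reference.

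The deposited values were counts of A, C, G and T at each position with 30 or more reads. The 8 libraries held between 1333869602 and 1590032260 base calls, with a median depth of 50 to 84 reads per covered position. FKBP replicate 2 stood apart from the other libraries in both fractions, with 1864179 covered positions in mock and 2047586 in NaCNBH3, while the other 6 libraries had 620711 to 955592. Positions covered in all 4 libraries of a fraction were compared, 535226 in mock and 535832 in NaCNBH3. The messenger RNA of NAT10 itself could not be followed, since no exon position of NAT10 reached 30 reads in any of the 8 libraries. The degron acts on the protein, but the paper reports that the tag lowered NAT10 protein even without dTAGV1. It proposes that this came from lower mRNA levels after the change of the 3′ untranslated region. All FKBP libraries had dTAGV1, so the effects of the tag and of the compound on NAT10 cannot be told apart. FKBP1A, the gene of FKBP12 from which the tag derives, had 362 and 485 exon positions with 30 or more reads in FKBP, against 67 and 0 in Wildtype in mock, and 238 and 585 against 0 and 39 in NaCNBH3. The FKBP libraries also covered more positions in total, 955592 and 1864179 in mock, against 620711 and 667047 in Wildtype. EMG1, a gene without the tag, had 30 and 132 such exon positions in FKBP mock libraries and 0 in both Wildtype mock libraries. It had 0 in all NaCNBH3 libraries. Reads from the tag and from FKBP1A cannot be told apart, and a signal of the tag was not tested. Of 10 liver line markers, 8 were covered well enough to be tested for depth, and none of 13 markers of erythroid, fibroblast, leukocyte or endothelial cells was.

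The sequences around the cytosines that carry the comparison are given first, since they share the bases on both sides. They are read from GRCh38 on the strand of the RNA, written as DNA from 5′ to 3′, and the capital marks the cytosine whose C>T share was measured. All but the last have CCG centred on that cytosine.
18S C1337, chr21:8210955-8210979 (+): gtggtgcatggcCgttcttagttgg
18S C1842, chr21:8211460-8211484 (+): taacaaggtttcCgtaggtgaacct
18S C1317, chr21:8210935-8210959 (+): ctttctcgattcCgtgggtggtggt
5′ ETS C2278, chr21:8208253-8208277 (+): cggcttcacgtcCgttggtggcccc
SNORD126 C, chr14:20326484-20326508 (-): gcatgttaagtcCgtgtttcagctg
SNORD18B C, chr15:66502049-66502073 (-): acttaattggtcCgtgtttctgaaa
TRL-TAG2-1 C12, chr14:20625369-20625393 (+): tggtagtgtggcCgagcggtctaag
TRS-GCT3-1 C12, chr11:66348119-66348143 (+): ggacgaggtggcCgagtggttaagg
18S-like copy, chr5:175115077-175115101 (-): gtggtgcatggcCattcttagttgg

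C>T at both established 18S acetylation sites was far lower in FKBP than in Wildtype after NaCNBH3. C1337 lies in helix 34 of the small subunit and C1842 in helix 45, near the decoding site. At C1337 the C>T share was 9.68% and 10.9% in the FKBP libraries, against 70.4% and 91.1% in the Wildtype libraries. At C1842 it was 6.60% and 9.35% in FKBP, against 74.1% and 90.6% in Wildtype. Both FKBP libraries lay far below both Wildtype libraries at each site, and a part of the reads still carried T in FKBP after 24 h of dTAGV1. Shares were summed over 9 genomic copies of C1337 and 8 of C1842, at which the same reads appear to be counted. On the log2 odds scale the difference was -5.42 (SE 0.72) at C1337 and -5.94 (SE 0.65) at C1842, with limma adjusted p of 0.067 and 0.037 over all tested positions, the first of which missed the threshold. In the fit with the replicate number as a block the adjusted p at C1337 was 0.039. Fisher's exact test, which counts reads and not the spread between libraries, called both sites in both replicate pairs.

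A small C>T signal was also present at both sites in the mock fraction, and it moved in the same direction. C1337 had 0.205% and 0.163% in FKBP mock libraries, against 1.04% and 1.24% in Wildtype mock libraries. C1842 had 0.0868% and 0.0392% in FKBP mock libraries, against 1.37% and 1.14% in Wildtype mock libraries. Both were called lower in FKBP by Fisher's exact test in both pairs, with adjusted p of 3.31e-41 and 4.15e-39 at C1337. On chromosome 5 an intergenic stretch with 1 of 25 bases different from the C1337 window followed the NaCNBH3 pattern, with 8.89% and 22.9% in FKBP, against 78.3% and 97.3% in Wildtype, at 45 to 150 reads. In mock it had 0% and 4.17% in FKBP and 0% in both Wildtype libraries. Reads from the 18S genes and from this stretch could not be told apart.

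Further 18S and precursor cytosines on the list of named positions had shares under 1% in Wildtype and lower ones in FKBP. Whether they are acetylated was not tested. C1317 of 18S had 0.0769% and 0.140% in FKBP NaCNBH3 libraries, against 0.376% and 0.400% in Wildtype, with 0.0407% to 0.0805% in the 4 mock libraries. The 5′ ETS is the external transcribed spacer that leads the precursor and is removed before 18S is mature. Its C2278 had 0.0517% and 0.125% in FKBP, against 0.299% and 0.478% in Wildtype, with 0.0444% to 0.0847% in mock. FKBP and Wildtype values did not overlap in NaCNBH3 at either position. Neither reached the 1% share required for a test, so these are values without one.

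At 3 box C/D small nucleolar RNAs, which guide 2′-O-methylation of ribosomal RNA, the C>T signal seen in Wildtype was close to absent in FKBP. SNORD126 had 1 of 476 reads and 1 of 508 reads with T in FKBP, against 13 of 293 and 32 of 571 in Wildtype. These are 0.210% (95% Clopper-Pearson interval 0.0053 to 1.16%) and 0.197% (0.0050 to 1.09%) in FKBP, against 4.44% (2.38 to 7.47%) and 5.60% (3.86 to 7.82%) in Wildtype, and the adjusted p of Fisher's exact test was 2.31e-04 and 3.8e-07 in the pairs. The intervals cover counting error only.

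SNORD87 had 0.0595% and 0.0659% in FKBP, against 6.399% and 5.93% in Wildtype (adjusted p 3.52e-23 and 1.08e-23). SNORD18B had 0 of 714 and 0 of 622 reads in FKBP, which allow shares of up to 0.420% and 0.482%, against 2.34% and 2.13% in Wildtype (adjusted p 8.85e-05 and 4.67e-04). In mock all 3 lay between 0% and 0.239% in every library of either genotype. Of 24 snoRNA cytosines tested in NaCNBH3, 5 were called lower in FKBP and 0 higher, and the other 2, SNORA54 and SNORD48 (the second chosen for mention after its values were seen), were lower in mock as well.

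C12 of leucine and serine tRNAs, the THUMPD1-dependent target, was lower in FKBP in part of these tRNAs. Of 28 tRNA sequences tested at C12 in NaCNBH3, 5 were called lower in FKBP and 0 higher, and the FKBP mean lay above the Wildtype mean in 1 of 28. TRL-TAG2-1, a leucine tRNA, had 6.72% and 8.71% in FKBP, against 13.6% and 38.0% in Wildtype, with adjusted p of 0.00999 and 8.38e-22. TRS-GCT3-1, a serine tRNA, had 0.563% and 0.565% in FKBP, against 2.35% and 3.25% in Wildtype. Neither showed an overlap of the groups, but both are among the 5 called lower, so this separation is largely built in. The other 3 called were TRL-CAG2-1, with 1.15% and 1.48% in FKBP against 3.15% and 7.08% in Wildtype, TRL-AAG2-2 and TRS-CGA4-1.

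Wildtype replicate 2 carried more C12 signal than Wildtype replicate 1 in most of these tRNAs. Summed over all leucine tRNAs, C12 had 1.44% and 1.95% in FKBP, against 1.75% and 5.82% in Wildtype, so that FKBP replicate 2 lay above Wildtype replicate 1 and the groups overlapped. Over serine tRNAs the sums were 1.07% and 0.841% in FKBP, against 1.92% and 4.30% in Wildtype, with no overlap. In mock the sums were 0.383% and 0.206% in FKBP, against 0.399% and 0.427% in Wildtype for leucine, and 0.0260% and 0.0349% against 0.120% and 0.111% for serine.

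**Figure D1:**
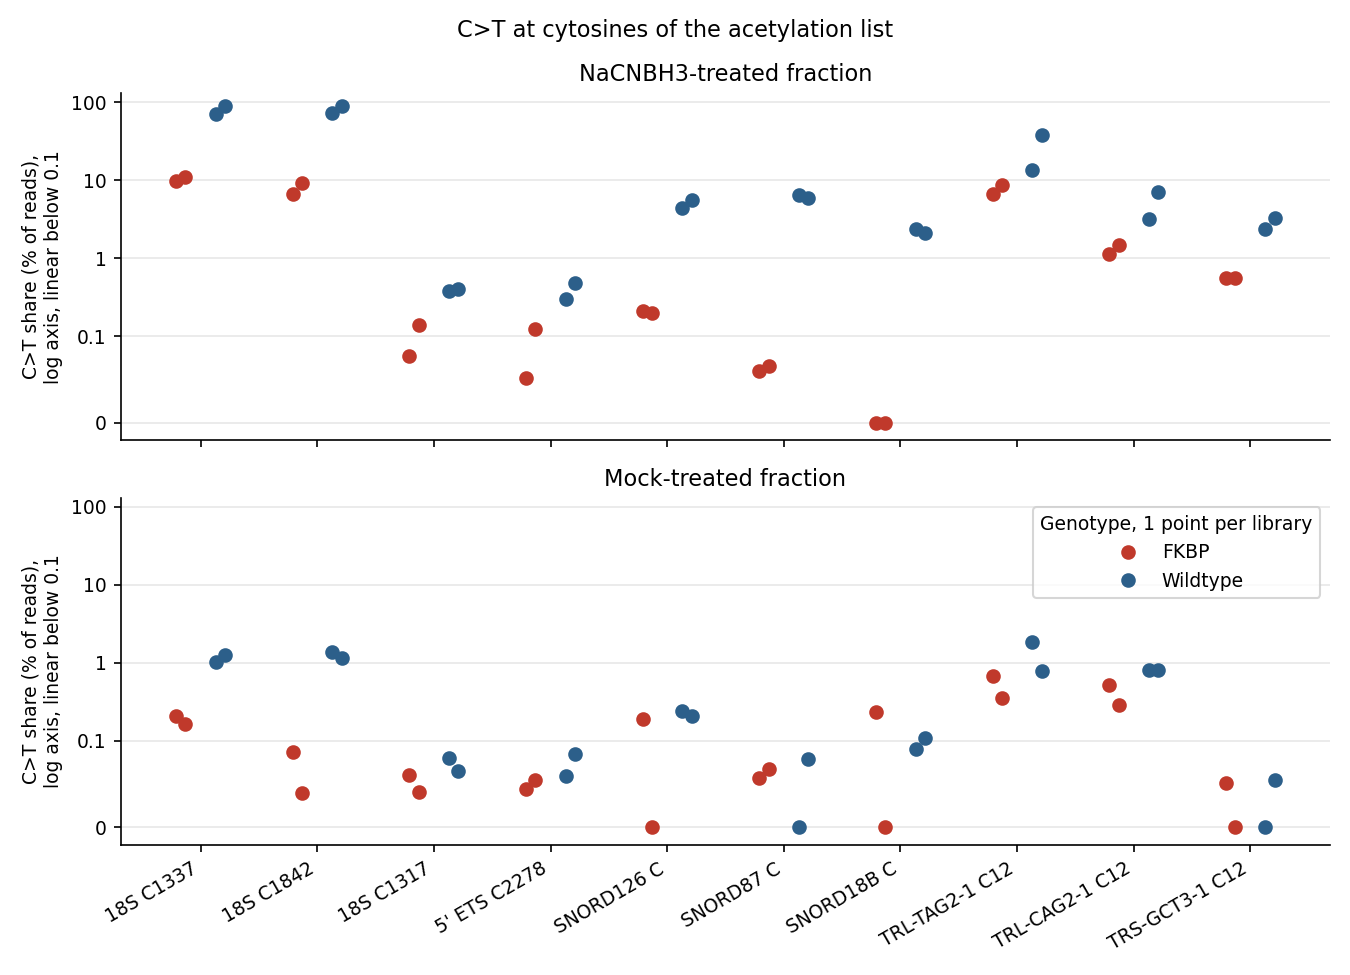
C>T share (% of reads, log axis that is linear below 0.1) at cytosines of the acetylation list in the NaCNBH3 and mock fractions, 1 point per library, FKBP in red to the left of Wildtype in blue. After NaCNBH3 the FKBP points lie below both Wildtype points at each of the 10 positions, with 9.68% and 10.9% against 70.4% and 91.1% at 18S C1337. The tRNA C12 positions drawn are all among the 5 of 28 called lower, so their separation is built in. Summed over all leucine tRNAs the groups overlapped at C12, with 1.44% and 1.95% in FKBP against 1.75% and 5.82% in Wildtype.

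Modified positions outside NAT10's target list did not follow this pattern. C34 of mitochondrial tRNA-Met, the wobble base that carries 5-formylcytidine and is also read as T after NaCNBH3, had 54.6% and 51.6% in FKBP, against 51.4% and 50.7% in Wildtype, and it had under 1% in all mock libraries. It was not called. U1248 of 18S, which carries the m1acp3Ψ modification completed by TSR3, had mismatch shares of 21.6% and 20.6% in FKBP, against 24.9% and 19.7% in Wildtype. The mock shares were 18.6% and 20.5% in FKBP, against 22.8% and 17.1% in Wildtype, and the pairs ran in opposite directions. A1322 of 28S, the site of m1A, had 1.05% and 0.653% in FKBP, against 0.462% and 0.501% in Wildtype, and was called in only the first pair.

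Across the transcriptome, C>T differences between FKBP and Wildtype ran in both directions, and most were present without NaCNBH3. A position was called when Fisher's exact test passed an adjusted p of 0.05 in both replicate pairs in the same direction, among mismatches with at least 5 reads and a 1% share. Counting every genomic copy, 129 of 1117 C>T positions were called in NaCNBH3 (11.5%), 73 lower and 56 higher in FKBP, and 86 of 900 in mock (9.56%), 45 lower and 41 higher. Counting only the most-read copy of each set of identical copies, 45 of 499 were called in NaCNBH3 (9.02%), 26 lower and 19 higher in FKBP, and 38 of 411 in mock (9.25%), 19 lower and 19 higher. All counts from here on use the most-read copy.

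Of the 26 lower in NaCNBH3, 14 were also called lower in mock (53.85% of the 26 and 73.68% of the 19 lower in mock), and of the 19 higher 12 were also higher in mock. By class, the calls in NaCNBH3 were 6 lower and 5 higher of 55 in rRNA, 8 and 7 of 126 in tRNA, 5 and 0 of 24 in snoRNA, 3 and 3 of 103 in mRNA, 1 and 0 of 41 in the spacers, and 1 and 1 of 25 in mitochondrial RNA. Calls in snoRNA were thus all in the direction of a lower share in FKBP, and those in rRNA and tRNA were mixed. In mock, mRNA had 3 lower and 1 higher of 103, and the spacers had no call among 33.

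Part of the positions called lower after NaCNBH3 had the CCG context of the acetylation sites. The trinucleotide CCG, read on the strand of the RNA with the tested cytosine in the middle, was present at 6759 of 108602 covered cytosines (6.22%) and at 78 of 499 tested positions (15.6%). It was present at 14 of the 26 positions lower in FKBP (53.8%), at 8 of the 12 that were lower in NaCNBH3 and not in mock (66.7%) and at 2 of the 19 higher (10.5%). The other 12 of the 26 lower had another context. The context was not limited to NaCNBH3, since CCG was present at 6 of the 14 positions lower in both fractions (42.9%) and at 7 of the 19 lower in mock (36.8%), against 45 of 411 tested in mock (10.9%). These are matches of letters. All 8 that were lower in NaCNBH3 and not in mock are named above: SNORD126, SNORD87, SNORD18B and the tRNA C12 called lower. C12 was labelled only in leucine and serine tRNAs with CCG at that place, so its context was fixed in advance. The shares thus restate known sites and do not test the context.

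A direct test of whether the FKBP difference was itself larger in NaCNBH3 than in mock called no position. In the limma fit of the interaction over 2236 positions, 494 of them C>T, 0 passed the adjusted threshold, while at an unadjusted p under 0.05 there were 21 C>T positions with a more negative FKBP difference in NaCNBH3 and 12 with a more positive one, and 67 other mismatches. The estimates were -2.78 (SE 0.70, adjusted p 0.90) at C1337, -1.56 (SE 0.96) at C1842 and -6.42 (SE 0.61, adjusted p 0.57) at SNORD87, on the log2 odds scale. At C1337 and C1842 the share was lower in FKBP in both fractions, while SNORD87 in mock had 0.0564% and 0.0671% in FKBP, against 0% and 0.0792% in Wildtype, where the groups overlapped. With 2 libraries a group, the interaction at these 3 positions did not pass the adjusted threshold.

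Summed over whole classes, the C>T share of rRNA cytosines differed little between the genotypes once the called positions were left out. Those positions were called for a difference in these same libraries, so a smaller difference in the remainder is partly built in. The rRNA share was 0.113% and 0.159% in FKBP, against 0.154% and 0.203% in Wildtype after NaCNBH3. Without the called positions it was 0.0995% and 0.146% in FKBP, against 0.0986% and 0.140% in Wildtype. In mRNA the share over all cytosines was 0.121% and 0.159% in FKBP, against 0.124% and 0.170% in Wildtype after NaCNBH3. In mock it was 0.0792% and 0.0780% in FKBP, against 0.0904% and 0.0893% in Wildtype. The replicates of a genotype differed by more than the genotypes did in NaCNBH3, for both classes.

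Among mismatches of other kinds and among the C>T calls shared with mock, a set on chromosomes 11 and 12 was all or none in FKBP. Of 1942 mismatches tested in both fractions, 13 were under 1% in all 4 FKBP libraries and over 20% in all 4 Wildtype libraries, and 0 had the reverse pattern. A further 5 were over 95% in all FKBP libraries and under 80% in all Wildtype libraries, and 0 had the reverse. All 18 lay on chromosome 11 (5) or chromosome 12 (13). These limits were chosen after the values were seen, and the counts are a description with no test.

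Of 25 mismatches on chromosomes 11 and 12 that stood at 20 to 80% in every Wildtype library, 18 were under 1% or over 95% in every FKBP library. Of 111 such mismatches on the other chromosomes 0 were, and 87 stayed at 20 to 80% in FKBP. The 5 on chromosome 11 were in IFITM3, an interferon-induced membrane protein, RPLP2 and RPS13, ribosomal proteins, and SNORA54 and SNORA3B, box H/ACA snoRNAs, between positions 320848 and 17077666. At RPLP2 (position 810347, G>A) the share was 0% and 0% in FKBP, against 37.3% and 38.5% in Wildtype. At RPS13 (position 17077666, C>T) it was 100% and 100% in FKBP, against 47.1% and 45.8% in Wildtype.

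The C>T in SNORA54 (position 2963843) had 0.165% and 0.202% in FKBP, against 36.03% and 36.4% in Wildtype after NaCNBH3, and 0% and 0% against 34.2% and 34.4% in mock, so that this drop of a snoRNA cytosine did not depend on the reduction. Those on chromosome 12 included positions in GAPDH (3), KRT8 (2), TUBA1B, SNORA53, PEBP1 and DYNLL1 and 2 intergenic positions, and the 13 were spread between 6534825 and 124939964. The other 7 of the 25 had shares of 20 to 80% in all FKBP libraries.

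The same all-or-none state was present in the genotypes made from the FKBP line. Of the 18, 17 or 18 were likewise near 0% or 100% in every library with reads of NAT10(-), NAT10-WT, G641E, K290A, E389L and H537A. Relative depth of the features on these chromosomes is given as a description with no test. In mock the median log2 ratio of FKBP over Wildtype was 0.23 over 45 mRNA features of chromosome 11 and 0.08 over 44 of chromosome 12, against 0.23 over all 663. In NaCNBH3 it was 0.18 over 50 and -0.07 over 46, against 0.15 over all 701. Over features of all classes the medians in mock were -0.12 on chromosome 11 and -0.08 on chromosome 12, against 0.09 over all 1107, and in NaCNBH3 -0.05 and -0.16, against 0.09 over all 1147. Chromosome 12 thus lay below the median of all features in each of these comparisons, and chromosome 11 in those over all classes. This was not particular to these chromosomes. Over all classes in mock, the medians were lower still on chromosomes 15 (-0.82), 6 (-0.20) and X (-0.17), and the rest lay above both. Chromosomes 15, 6 and X had 0 mismatches of the all-or-none kind.

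**Figure D2:**
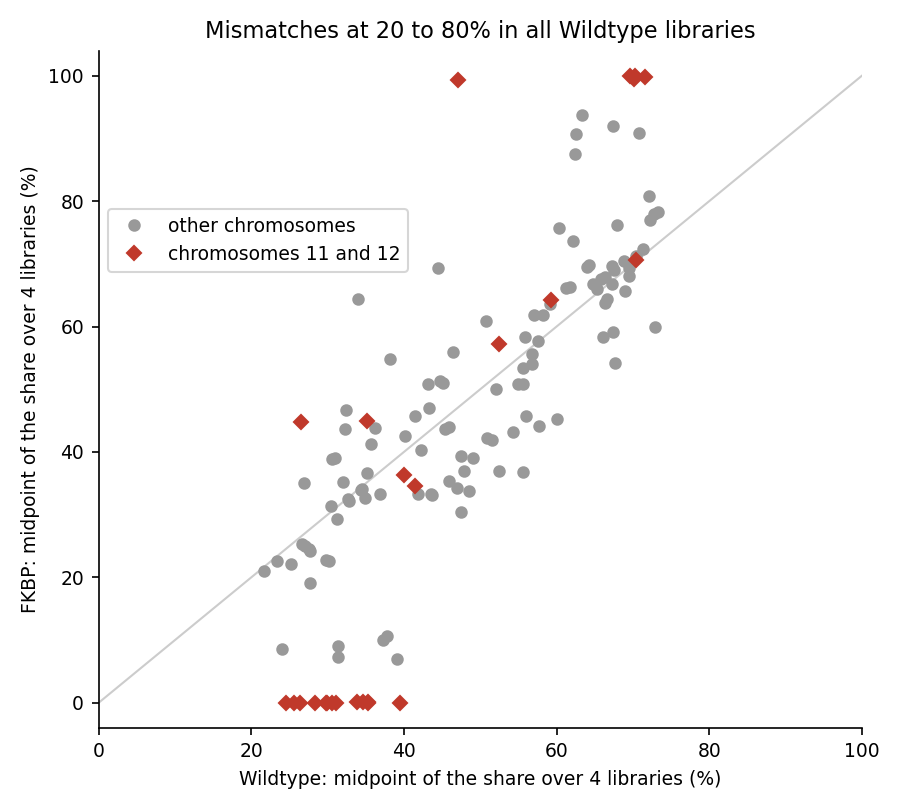
Mismatch share (%, midpoint of the lowest and highest of 4 libraries, mock and NaCNBH3) in FKBP on the vertical axis against Wildtype on the horizontal axis, for mismatches at 20 to 80% in all Wildtype libraries. Red diamonds are the 25 on chromosomes 11 and 12, 18 of which lie under 1% or over 95% in every FKBP library, and grey points are the 111 on other chromosomes, none of which do.

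Chromosome 2 showed a partial form of this pattern. Of 11 mismatches at 20 to 80% in all Wildtype libraries, 9 were not within that range in all FKBP libraries. In 5 of them the FKBP shares were 4.35 to 14.6%, against 20.5 to 41.9% in Wildtype, and in 4 the FKBP shares were 83.6 to 98.0%, against 57.1 to 73.2% in Wildtype. SCARNA5, a Cajal body RNA, had G>A at 10.3% and 10.3% in FKBP, against 37.4% and 34.8% in Wildtype, and RPL37A had C>T at 8.84% and 5.72% in FKBP, against 30.2% and 29.5% in Wildtype. In all 9 the base that was rarer in Wildtype was rarer still in FKBP. On the other chromosomes with 10 or more such mismatches (1, 6 and 19), 3 of 17, 3 of 28 and 3 of 15 left the range.

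Mismatches other than C>T were called at a similar rate, with more higher than lower in FKBP. Counting every copy, 428 of 3657 were called in NaCNBH3 (11.7%) and 493 of 3518 in mock, 179 lower (5.09%) and 314 higher in FKBP (8.93%). With the most-read copy, 174 of 1820 were called in NaCNBH3 (9.56%), 69 lower and 105 higher in FKBP, and 202 of 1771 in mock (11.4%), 79 lower and 123 higher. Of the 105 higher in NaCNBH3, 73 were also higher in mock (69.52% of the 105 and 59.35% of the 123), and of the 69 lower 54 were also lower in mock (78.26% of the 69 and 68.35% of the 79).

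The excess of higher calls lay in tRNA. There, 59 of 624 were higher and 20 lower in NaCNBH3, and 79 of 610 were higher and 25 lower in mock. The other classes had few or balanced calls: in NaCNBH3 mRNA had 12 lower and 8 higher of 211, the spacers 10 and 8 of 128, snRNA 5 and 5 of 100, rRNA 5 and 2 of 89, snoRNA 4 and 1 of 63 and mitochondrial RNA 1 and 6 of 144.

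A58, the position in the T loop where m1A blocks reverse transcription, accounted for the largest number of these tRNA calls. Of 128 tRNA sequences tested at A58, 31 were higher in FKBP and 0 lower in NaCNBH3, and 37 were higher and 1 lower in mock. Summed over tRNAs the mismatch share at A58 was 60.5% and 57.1% in FKBP, against 54.9% and 54.6% in Wildtype after NaCNBH3, and 58.7% and 56.5% in FKBP, against 52.9% and 52.9% in Wildtype in mock. Both FKBP libraries lay above both Wildtype libraries in each fraction. Single tRNAs had a median difference of 4.30 percentage points in NaCNBH3 and 4.18 in mock, and 113 and 112 of the 128 had a higher FKBP mean.

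G26, where TRMT1 makes m2,2G at the corner of the tRNA, was higher in 6 of 62 and lower in 0 in NaCNBH3, and higher in 15 of 61 and lower in 0 in mock. Its summed share was 45.6% and 39.2% in FKBP, against 31.8% and 38.3% in Wildtype in mock, and 55.7% and 42.9% against 38.2% and 47.6% after NaCNBH3, where the groups overlapped. C32, which carries m3C in several of these tRNAs, had C>T higher in 3 of 25 and lower in 0 in NaCNBH3, and in 3 of 24 and 0 in mock. Its summed C>T share was 25.4% and 26.4% in FKBP, against 15.5% and 22.5% in Wildtype after NaCNBH3.

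G9 had no call among 65 positions in NaCNBH3 and 60 in mock, and inosine at position 34 had 4 higher and 2 lower of 21 in NaCNBH3. Tested positions outside this list were balanced, with 13 higher and 18 lower of 289 in NaCNBH3. The tRNA genes differ in sequence at few bases, so that reads of related genes may be counted at each other, and a share can move with the mix of genes expressed as well as with modification, which cannot be told apart here. The steepest single case was a tRNA-Val-like gene (TRNAV-CAC, chromosome 1, position 145157214), with A>G at 64.1% and 63.5% in FKBP, against 10.9% and 18.5% in Wildtype.

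**Figure D3:**
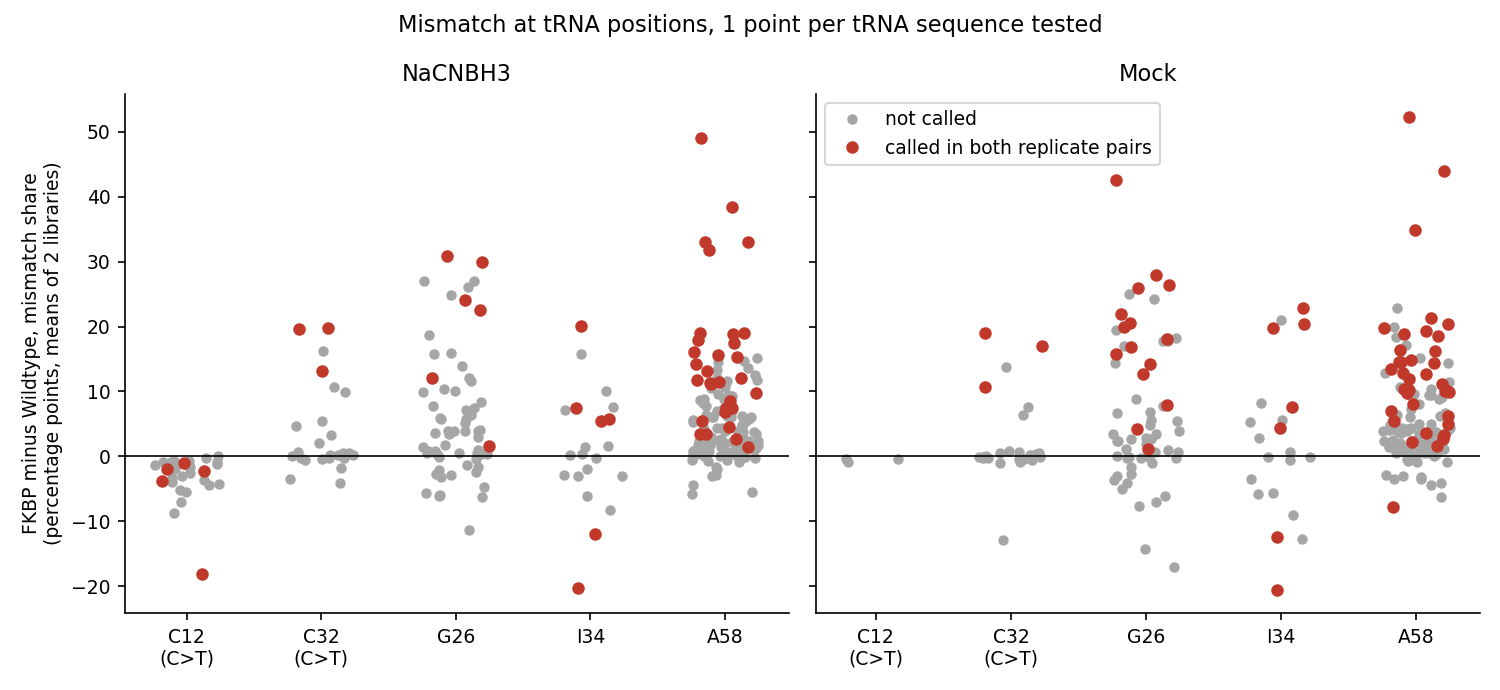
Difference in mismatch share, FKBP minus Wildtype (percentage points, means of 2 libraries), at 5 tRNA positions in the NaCNBH3 and mock fractions, 1 point per tRNA sequence tested, red where it was called in both replicate pairs. C12 lies below 0 in all but 1 of 28 in NaCNBH3, and red points at A58 lie above 0 with 1 exception in mock.

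Single mismatches of other classes that were called in both fractions included several without a link to NAT10's sites. At nucleotide 1539 of 28S a G>T was at 0.0052% and 0.0161% in FKBP, against 1.89% and 4.22% in Wildtype, in NaCNBH3. In the second internal transcribed spacer (ITS2, nucleotide 721) G>A was at 26.8% and 25.9% in FKBP, against 42.2% and 47.9% in Wildtype. In MT-RNR2, the mitochondrial large ribosomal RNA, G>A at position 1770 was at 2.54% and 2.99% in FKBP, against 9.22% and 7.71% in Wildtype.

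Higher in FKBP were C>T in RMRP, the RNA of the RNase MRP complex (position 35657841 of chromosome 9), at 14.3% and 13.2% in FKBP, against 4.32% and 4.27% in Wildtype, and A>G in GAS5, a snoRNA host gene, at 1.06% and 0.886% in FKBP, against 0.0247% and 0.0332% in Wildtype. All 5 kept their direction in mock, which follows from the choice of mismatches called in both fractions. The groups did not overlap at any of them. They were picked from the largest called differences, so this separation is largely built in.

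Depth was compared as the mean depth of a gene or RNA species over its covered positions, relative to all such features, with edgeR. Relative depth cannot separate fewer molecules per cell from a different recovery of RNA classes in the library. Of 1163 features, 30 were called in mock (2.58%), 10 higher and 20 lower in FKBP, and of 1203 features 34 were called in NaCNBH3 (2.83%), 12 higher and 22 lower. At an unadjusted p under 0.05 there were 256 in mock and 224 in NaCNBH3. Of the calls, 22 were shared by both fractions, and all 28 mock calls tested in NaCNBH3 had the same sign there.

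The split by direction depended on the scaling. When each library was scaled to its total in place of the trimmed mean (TMM), the median log2 ratio over all features moved to 0.33 in mock and 0.23 in NaCNBH3, against 0.06 and 0.07 with TMM, and the calls became 43 higher and 26 lower in mock and 29 higher and 25 lower in NaCNBH3. The counts also changed widely when 1 library was left out, rising without FKBP replicate 1 and falling without either Wildtype library. Such a fit leaves 1 library in a group, so its spread comes from the 2 libraries of the other genotype alone. The median log2 ratio over all features lay between 0.0009 and 0.088 in mock and between -0.0055 and 0.069 in NaCNBH3 in these fits.

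The feature with the largest decrease was IGF2, the fetal growth factor of chromosome 11 that many liver tumours express. Its relative depth in mock was 37.0 and 117 in FKBP, against 744 and 593 in Wildtype (CPM of the feature mean depths, with TMM scaling), a log2 ratio of -3.10 (SE 0.45, edgeR adjusted p 0.0016). In NaCNBH3 the ratio was -3.09. IGF2 starts at position 2129112 of chromosome 11, between 320848 and 17077666, where the 5 all-or-none mismatches of that chromosome lie. NAT10 itself starts at 34105617 of the same chromosome, outside that stretch. A link between the depth of IGF2 and these mismatches was not tested. MDK, the heparin-binding growth factor midkine, also on chromosome 11, had 45.2 and 59.6 in FKBP, against 162 and 157 in Wildtype (log2 ratio -1.60). MDK starts at 46380756, also outside that stretch. Neither IGF2 nor MDK overlapped between genotypes. Both were named from the largest called decreases with the same sign in both replicate pairs, so this separation is largely built in. Over all 16 mock libraries, the mean log2 relative depth of MDK minus that of Wildtype was -1.70 in FKBP and between -1.65 and -0.90 in the 6 other genotypes made from the FKBP line, with no test made of each. IGF2 was at -3.24 in FKBP on that scale and between -3.43 (K290A) and -0.22 (H537A) in the others.

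Among the features called higher in FKBP, ALB, the serum albumin mRNA, had a relative depth of 890.5 and 3250 in FKBP, against 492 and 357 in Wildtype in mock (log2 ratio 2.29, SE 0.49, adjusted p 0.018), and FGA, the fibrinogen alpha chain, had 129 and 126 in FKBP, against 48.7 and 55.1 in Wildtype (log2 ratio 1.29). NTS, the precursor of neurotensin, rose by 1.95 and MALAT1, a nuclear long noncoding RNA, by 2.03. NPM1, the nucleolar protein nucleophosmin, rose by 1.85 in mock, and RPL7, a ribosomal protein, rose there too, with 143 and 269.6 in FKBP against 83.9 and 62.6 in Wildtype. Neither was called in NaCNBH3.

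For ALB, NTS, MALAT1, NPM1 and RPL7 the increase was larger in the second replicate pair, since FKBP replicate 2 had the highest depth. ALB differed by 0.85 in the first pair and 3.18 in the second, and MALAT1 by 0.79 and 3.05. FGA differed by 1.38 and 1.17. FKBP replicate 2 was the library with the larger share of mRNA, and its part in these values was not tested.

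Of 8 liver line markers tested, 1 was higher in mock and 2 in NaCNBH3, and none was lower, with medians of 0.71 and 0.74. Of 20 liver secretory proteins, 2 were higher and 0 lower in mock, and 3 were higher and 1 lower in NaCNBH3. Ribosomal protein mRNAs had 69 of 74 ratios above 0 in mock and 67 of 74 in NaCNBH3, with medians of 0.60 and 0.57, but 1 and 0 of them were called. Over all mRNA features, 460 of 663 ratios were above 0 in mock and 461 of 701 in NaCNBH3.

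Translation factors had medians of 0.63 over 19 and 0.38 over 18 with no call, and heat shock proteins 0.60 over 13 in both fractions with 0 and 1 called. Replication-dependent histones ran the other way, with medians of -0.21 over 42 and -0.28 over 43 and 2 and 3 called lower. The medians over all mRNA features were 0.23 and 0.15, which is the background for these lists. Of 50 ribosome biogenesis factors only 5 were covered well enough to be tested.

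Transfer RNAs were lower in FKBP as a class. All 48 isoacceptor groups had a negative ratio in both fractions, with medians of -0.88 in mock and -0.94 in NaCNBH3, and 4 were called lower in both, TRI-TAT, TRA-TGC, TRR-TCT and TRM-CAT. All 48 were below 0 with scaling to the total too. TRI-TAT, the isoleucine tRNA that reads AUA codons, had the largest decrease, with 246 and 232 in FKBP, against 975 and 843 in Wildtype in mock (log2 ratio -1.93, SE 0.35, adjusted p 0.0053). As a share of base calls outside rRNA, tRNA made up 8.95% and 6.08% in FKBP, against 13.1% and 14.2% in Wildtype in mock, and 10.96% and 6.10% in FKBP, against 11.6% and 18.4% in Wildtype in NaCNBH3. The groups did not overlap in either fraction over the positions covered in all libraries. Over all positions deposited for each library the NaCNBH3 shares were 11.8% and 7.16% in FKBP, against 11.4% and 15.002% in Wildtype, which overlap.

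Messenger RNA took 22.8% and 33.95% of these base calls in FKBP, against 20.03% and 21.9% in Wildtype in mock, and 21.6% and 32.3% against 23.1% and 19.9% in NaCNBH3, where the groups overlapped. Over all deposited positions the mRNA shares in NaCNBH3 were 12.4% and 28.4% in FKBP, against 11.6% and 11.4% in Wildtype, with no overlap. In mock, small nuclear RNA took 4.74% and 4.06% of base calls outside rRNA in FKBP, against 5.88% and 5.90% in Wildtype, without overlap, while snoRNA (27.6% and 19.6% against 24.5% and 23.7%) and the spacers (11.3% and 11.3% against 10.1% and 11.5%) overlapped. BCYRN1, the brain cytoplasmic RNA made by RNA polymerase III, had a relative depth of 89.5 and 67.9 in FKBP, against 341 and 398 in Wildtype (log2 ratio -2.23).

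Of the called long noncoding features, ENSG00000260035 (-2.34), POLG-DT (-1.97) and ENSG00000259932 (-1.93) had all their covered positions, 53, 27 and 57 of them, within 100 nt of a histidine or arginine tRNA gene (TRH-GTG1-8, TRR-TCG1-1 and TRH-GTG1-7), and the reads there cannot be told apart from extended tRNA transcripts.

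Mitochondrial tRNAs diverged by the strand that encodes them. The 8 tested tRNAs of the light strand, whose genes lie on the minus strand of the build, all had ratios below 0, from -1.87 to -0.53 with a median of -1.10 in mock and of -0.98 in NaCNBH3. The 12 on the plus strand ranged from -0.61 to 0.58 in mock, with a median of -0.20, and 7 of them were below 0. This grouping was made after the values were seen and has no test. MT-TN, the asparagine tRNA, was called in both fractions, with 4382 and 2819 in FKBP, against 14947 and 11448 in Wildtype in mock (log2 ratio -1.87), and MT-TP (-1.54) in mock. MT-ND6, the one protein-coding mRNA of that strand, was higher, with 281 and 390 in FKBP, against 106 and 142 in Wildtype (log2 ratio 1.44, adjusted p 0.028). The 13 mitochondrial mRNAs had a median of 0.38 in mock and 0.53 in NaCNBH3, and MT-ND6 was the only one called. Over the 16 mock libraries the mean log2 relative depth of MT-TN minus that of Wildtype was -1.97 to -1.34 in the 7 genotypes that carry the tag, with no test made of each.

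**Figure D4:**
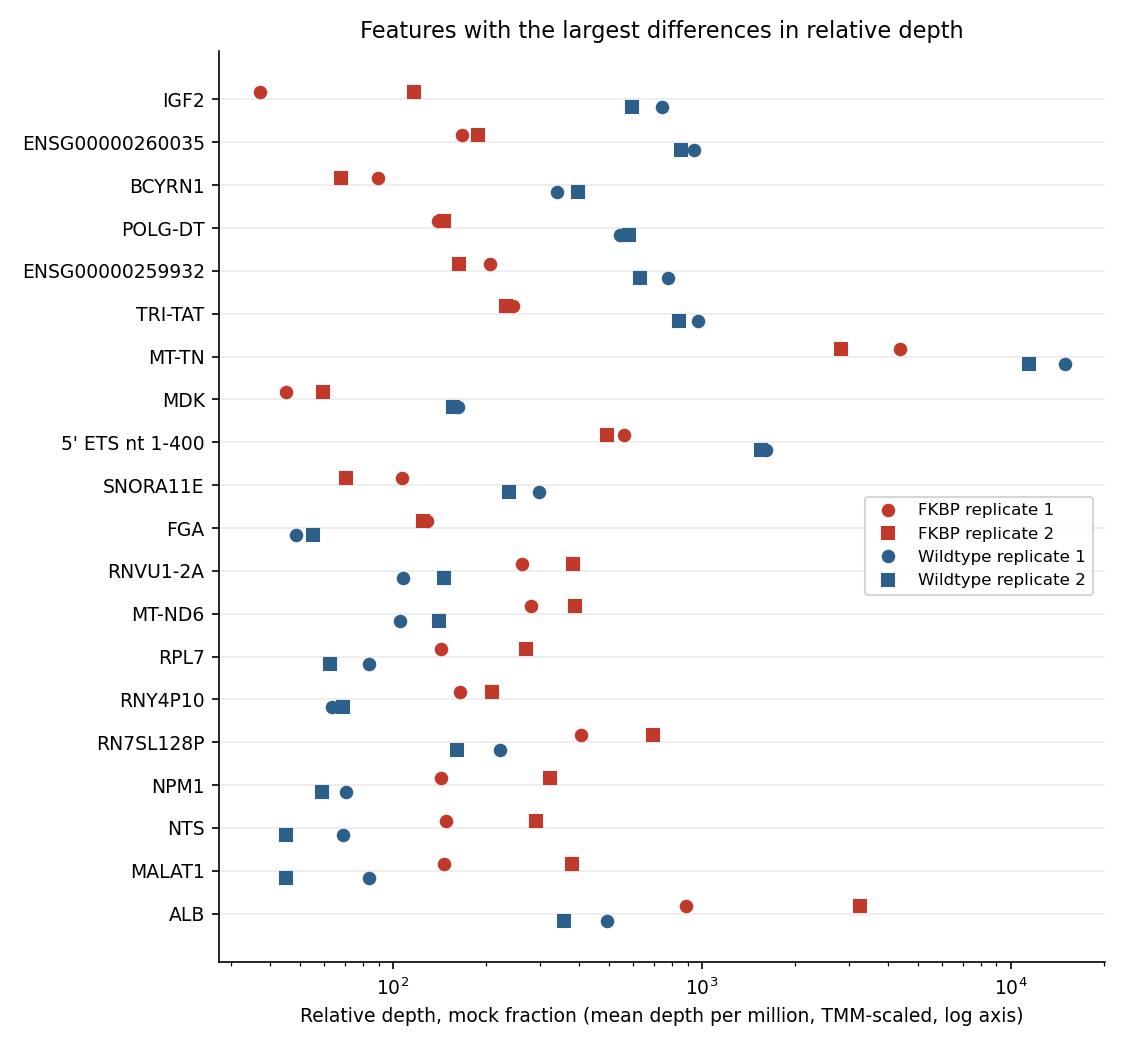
Relative depth in the mock fraction (CPM of the feature mean depths, TMM-scaled, log axis) of the features with the largest differences that passed the test, with FKBP in red above Wildtype in blue and replicate 1 as circles, replicate 2 as squares. IGF2 lies at 37.0 and 117 in FKBP, against 744 and 593 in Wildtype, and FKBP replicate 2 is the farthest right for ALB at 3250.

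The precursor of ribosomal RNA differed most at its 5′ end. The human pre-rRNA is first cut within the 5′ ETS, and the leading fragment is degraded. Depth over nucleotides 1 to 400 of the 5′ ETS was 543 and 539 in FKBP, against 1198 and 1243 in Wildtype in mock, while over nucleotides 451 to 900 it was 6381 and 5583 in FKBP, against 4087 and 4173 in Wildtype. The ratio of the first to the second was 0.0851 and 0.0965 in FKBP, against 0.293 and 0.298 in Wildtype, 0.307-fold. After NaCNBH3 it was 0.0829 and 0.109 in FKBP, against 0.314 and 0.293 in Wildtype, 0.317-fold. FKBP and Wildtype did not overlap in either fraction, and the exact permutation test (two-sided) gave 0.333 in both, the smallest p that 2 against 2 libraries allow. In the edgeR fit the leading segment had a log2 ratio of -1.59 (SE 0.35, adjusted p 0.018) in mock and -1.65 in NaCNBH3.

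The step between the leading segment and the rest lay at nucleotides 434 to 447 in the mock libraries of both genotypes. Past the step the ratios between spacers differed less. The ratio of nucleotides 451 to 3600 to ITS2 was 1.01 and 1.27 in FKBP, against 0.859 and 0.892 in Wildtype in mock, that of ITS1 to ITS2 was 0.658 and 0.689 against 0.634 and 0.598, and that of the 3′ ETS to ITS2 was 0.0906 and 0.0783 against 0.120 and 0.119. None of the 3 overlapped between genotypes in mock, with exact permutation p of 0.333 each. Depth of mature 18S, 5.8S and 28S lay near the ceiling of the counts, which was 20029 to 20049 reads in the 8 libraries, at most positions and was not compared.

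Most libraries of the other genotypes made from the FKBP line had 5′ ETS ratios above those of FKBP. In mock the ratio of nucleotides 1 to 400 over 451 to 900 was 0.168 and 0.198 in NAT10(-) and 0.247 and 0.304 in NAT10-WT, against 0.0851 and 0.0965 in FKBP. NAT10(-) is the FKBP line transduced without NAT10 and NAT10-WT the one transduced with it, and no test was made of their order. The other 4, which carry NAT10 mutants, ranged from 0.0522 to 0.334 in mock, and among their mock libraries K290A replicate 1, at 0.0522, was the one below both FKBP libraries.

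**Figure D5:**
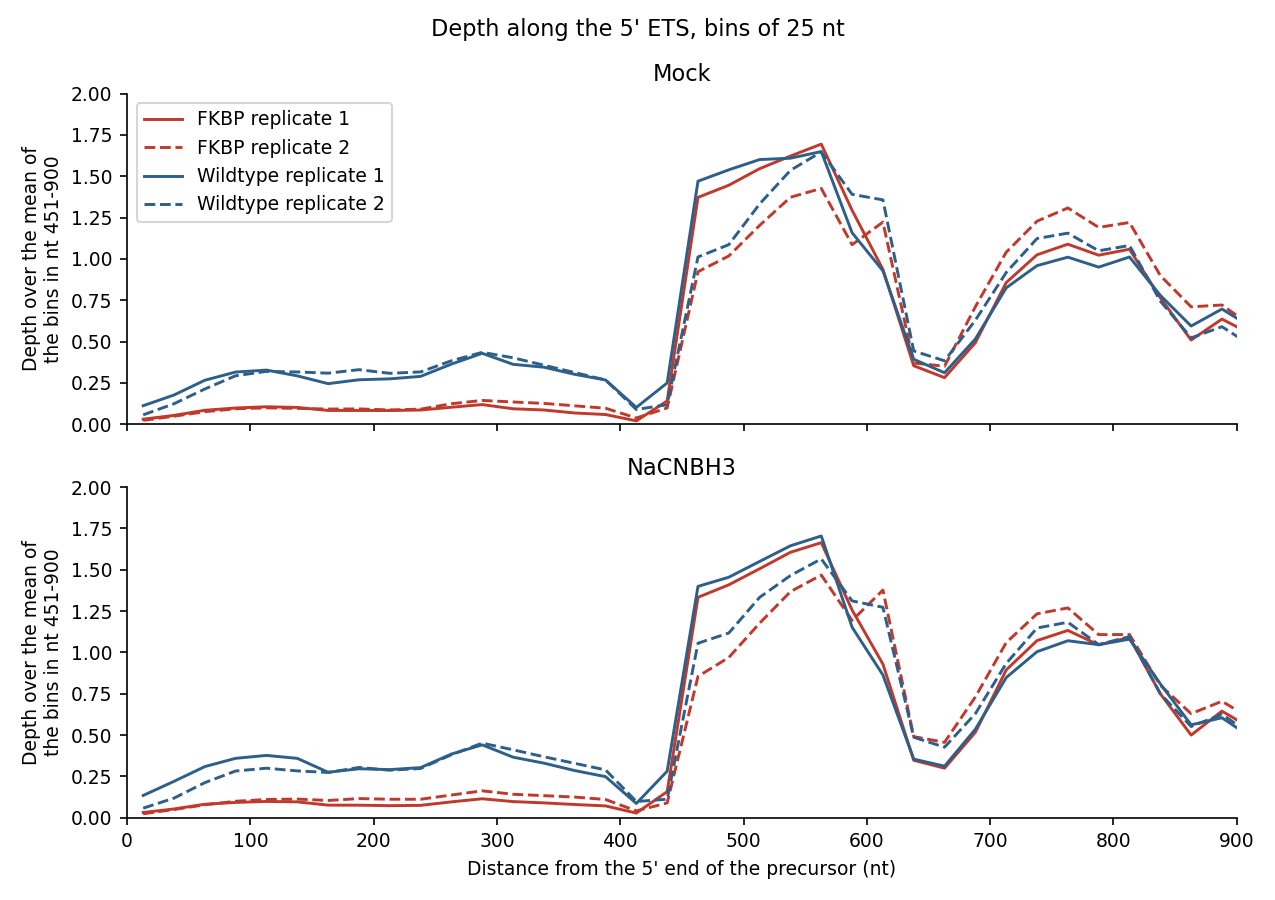
Depth along the first 900 nt of the 5′ ETS in bins of 25 nt, over the mean of the bins in nt 451-900, against distance from the 5′ end of the precursor (nt), mock above and NaCNBH3 below, with FKBP in red and Wildtype in blue. All FKBP lines run below the Wildtype lines over the first 400 nt, with ratios of 0.0851 and 0.0965 against 0.293 and 0.298 in mock.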

How the data were processed

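Libraries of FKBP and Wildtype Hep3B cells were grouped by their titles. The authors removed adapters, collapsed duplicates by molecular identifier, aligned to GRCh38 and deposited raw counts of A, C, G and T per position and strand. Tools named in the submitters' notes are STAR 2.7.9a, SAMtools 1.6, cutadapt 4.2 and UMI-tools 1.1.5. No normalization had been applied to the deposited counts.

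Positions with 30 or more reads in the 4 libraries of a fraction were annotated with GENCODE genes. Mismatches were tested with Fisher's exact test per replicate pair and with limma 3.58.1 (pseudocount 0.5), and feature depth (rounded mean over at least 20 positions) with edgeR 4.0.16 under TMM, all with Benjamini-Hochberg adjustment over all tested rows. Depth levels off near 20029 to 20049 reads, so positions over 14000 reads were left out of depth comparisons, a limit chosen after seeing the data. Reads of identical gene copies appear to be counted at each copy. Scripts were tested on simulated data. Positions always named were known or possible acetylation sites and known modification sites of rRNA and tRNA. Then came the largest called differences, up to 10 in each direction and a few per class, and the 10 largest feature changes each way. Members, lists and limits were chosen with earlier results of these data known.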

Additional observations from a re-analysis of the deposited data

How the results depend on the processing

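The counts of called positions changed with the handling of copies and with the test, and the cause was not tested beyond what each alternative changes by construction. For C>T lower, C>T higher and other mismatches in NaCNBH3 (73, 56 and 428 with every copy), the counts were 35, 31 and 237 with identical copies summed, 26, 19 and 174 with the most-read copy (chosen after seeing the data), 15, 5 and 44 by limma, and 26, 6 and 44 by limma with the replicate number as a block. With a single replicate pair they ranged over 120 to 149, 101 to 131 and 841 to 1069. For C>T and other mismatches in mock (86 and 493) they were 51 and 268, 38 and 202, 28 and 65, and 4 and 10 in the same order, and 158 and 899 to 1002 with a single pair.

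The counts of features with changed depth in mock and NaCNBH3 (30 and 34) were 68 and 102 by DESeq2, 69 and 54 with scaling to the total, 7 and 1 with at least 100 positions, 68 and 54 by median depth and 11 and 7 in the fit over 16 libraries. In mock the replicate block gave 150 and protein-coding genes alone 66. Leaving out 1 library gave 4 to 410 in mock and 4 to 320 in NaCNBH3, the highest without FKBP replicate 1 and the lowest without Wildtype replicate 2. Whether same-numbered libraries shared a day is not given for these libraries, and they were treated as sharing only a number. The correlation of replicate differences was 0.208 in mock and -0.216 in NaCNBH3 for feature depth, and 0.189 and 0.117 for the log2 odds of mismatch, over 2 pairs. With the numbers crossed, 0 features were called in NaCNBH3.

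At 18S C1337 the difference of -5.42 (adjusted p 0.067) passed the threshold with a pseudocount of 5 (-5.42, adjusted p 0.013), with the replicate block (-5.42, 0.039) and with the most-read copy (-5.69, 0.045), and leaving out 1 library gave -6.48 to -4.37. At C1842 leaving out 1 library gave -6.82 to -5.06, none past the threshold. Both kept their sign under all of these alternatives.

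Of 16 class results each, all 16 moved by less than the spread when all genomic copies were counted, 12 moved when all deposited positions were used and 4 moved without the called C>T positions. Spacer depth relative to mature rRNA and its alternatives were not run, since mature rRNA lies at the depth ceiling. With 2 libraries a group, exact tests cannot fall below 0.333, and small shares at low depth were not detectable.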
